A study of Rattus norvegicus with 12 samples.

Results

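The receptor dependence of the FGF18 response was examined in RCS, a chondrocyte line from the Swarm rat chondrosarcoma, as the difference between the FGF18 effect in cells without FGFR3 and FGFR4 and the FGF18 effect in WT cells. All 12 of the 12 libraries of the series were used, with 3 in each of 4 groups, and they were grouped by the genotype and treatment in their labels. For each gene the comparison was the interaction, (FGFR3/4KO with FGF18 minus FGFR3/4KO with vehicle) minus (WT with FGF18 minus WT with vehicle), on the log2 scale. A negative interaction means that the FGF18 effect was lower in FGFR3/4KO RCS, and a positive interaction that it was higher. The groups were WT RCS with vehicle, WT RCS with FGF18, FGFR3/4KO RCS with vehicle and FGFR3/4KO RCS with FGF18, all kept overnight in medium with adult bovine serum. Vehicle stands for the cells that the labels call untreated. The FGFR3/4KO cells came from 1 clone made with CRISPR/Cas9, so that the loss of the receptors and any other property of that clone cannot be told apart. The labels give the dose of FGF18 as 50 µg/ml, while the methods of the study give the same figure in ng/ml.

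FGF18 is a secreted growth factor of cartilage and bone that binds FGF receptors, which are tyrosine kinases at the cell surface. In growth plate chondrocytes FGFR3 is known as a brake on proliferation, acting through the MAPK and STAT pathways, and activating mutations of it cause dwarfism. The comparison asks which transcripts respond to FGF18 differently in cells without these receptors.

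Libraries came from 100 ng of total RNA by the QuantSeq 3′ method, in which a transcript is read close to its 3′ end. Reads on genes ranged from 669585 to 947730 in WT vehicle, from 846957 to 1196647 in WT FGF18, from 373964 to 925006 in FGFR3/4KO vehicle and from 840149 to 1140741 in FGFR3/4KO FGF18. Levels are given as counts scaled to the library total (CPM) after TMM normalization, in the order of replicates 1, 2 and 3, and before that normalization 3 reads equal 2.51 to 8.02 CPM depending on the library. Between 77.0% and 79.8% of the reads of WT libraries and between 71.2% and 74.6% of those of FGFR3/4KO libraries were left uncounted for low alignment quality. This share moved with genotype and hardly with FGF18, with means of 78.5% and 77.9% in WT RCS and of 73.3% and 72.5% in FGFR3/4KO RCS for vehicle and FGF18, and its part in the interaction was not tested. The counts of FGFR3/4KO FGF18 replicate 1 differed from those of replicates 2 and 3 by a chi-square of 4.62 and 4.65 times its degrees of freedom, against 2.0 between replicates 2 and 3. In WT FGF18 the largest such value was 5.67, between replicates 1 and 3. Gene names were available for 1418 of the 7378 genes tested, and the targeted genes Fgfr3 and Fgfr4 were not analysed here by name, so the deletion was not checked in the libraries.

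The chondrocyte label was checked against 11 markers, all of which had reads. Their summed level was 8076 to 8519 CPM in WT vehicle and 7075 to 7614 CPM in WT FGF18. It was 9401 to 9877 CPM in FGFR3/4KO vehicle and 9648 to 10386 CPM in FGFR3/4KO FGF18, and the most abundant was Prelp, a leucine-rich proteoglycan of cartilage matrix. All 4 groups carried the chondrocyte markers, at 7075 CPM or more, and no list of another cell type summed to more than 229.6 CPM in any library.

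The interaction passed a false discovery rate (FDR) of 0.05 for 802 genes, 10.9% of those tested (quasi-likelihood F test of edgeR, p adjusted by Benjamini-Hochberg, n = 3 libraries in each group). It was positive for 436 genes (5.91%) and negative for 366 (4.96%). With 1 library left out the test called from 561 genes, without FGFR3/4KO vehicle replicate 1, to 880, without WT FGF18 replicate 3, and the number was under 802 in 10 of the 12 fits. Without FGFR3/4KO vehicle replicate 2, the library with the fewest reads, it was 724. The replicates are labelled as biological, and nothing in the labels says whether they came from separate cultures on separate days, so the p-values measure the spread between these libraries.

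The median FGF18 effect of the interaction genes was larger in size in WT RCS, while some single genes described further on had the larger estimate in FGFR3/4KO RCS. Among the 366 genes with a negative interaction the median log2 effect of FGF18 was 1.15 in WT RCS (quartiles 0.80 and 1.68) and -0.09 in FGFR3/4KO RCS (quartiles -0.27 and 0.08). Among the 436 with a positive interaction it was -1.03 in WT RCS (quartiles -1.34 and -0.75) and 0.12 in FGFR3/4KO RCS (quartiles -0.03 and 0.25). These medians describe genes that the same libraries chose, and over all genes tested the medians were 0.02 and 0.01. FGF18 changed 1898 genes in WT RCS (25.7% of those tested), 950 upward (12.9%) and 948 downward (12.8%). In FGFR3/4KO RCS it changed 0 genes (0%) by edgeR and 0 by DESeq2, while before adjustment 478 genes had a p under 0.05 by edgeR and 286 by DESeq2. With no filter on low counts edgeR called 9 genes higher and 11 lower there, and without WT FGF18 replicate 3 it called 1 lower. A gene without a call in FGFR3/4KO RCS may still have an effect there, since the median standard error of a log2 effect was 0.26.

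**Figure D1:**
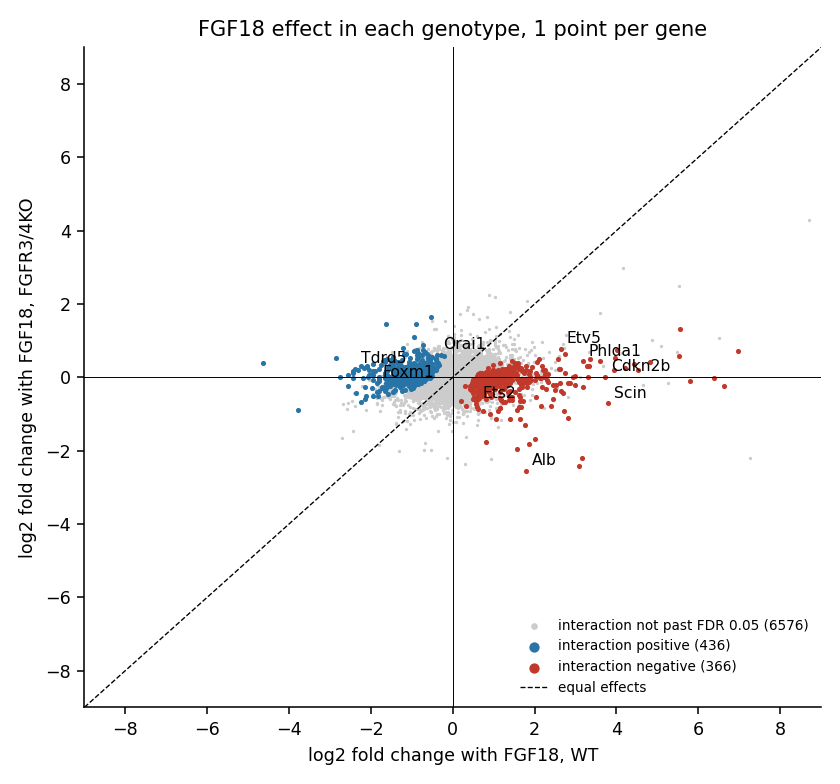
The log2 fold change with FGF18 in WT RCS (x axis) is plotted against that in FGFR3/4KO RCS (y axis), with 1 point for each of the 7378 genes tested and colours for the sign of an interaction past an FDR of 0.05. The 436 positive and 366 negative genes lie mostly to the left and right along the horizontal axis, away from the dashed line of equal effects.

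How much of the WT response remained without the receptors was read from the FGFR3/4KO libraries, which had no part in the call of the WT effect other than through the shared filter, scaling and estimate of spread. The 950 genes that rose in WT RCS had a median log2 effect of 0.93 there and 0.06 in FGFR3/4KO RCS, and 58.4% of them lay above 0 in FGFR3/4KO RCS against 50.9% of all genes. The 948 genes that fell had medians of -0.88 and -0.04, and 56.0% lay below 0 against 49.1% of all genes. Before adjustment, a p under 0.05 in FGFR3/4KO RCS went with the WT direction for 45 of the risen genes and with the opposite direction for 23. For the fallen genes the numbers were 69 and 22.

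The median remainder was small in every class of WT effect size. For the 686 genes with a WT effect under 0.75 in size, the median effect in FGFR3/4KO RCS, counted in the WT direction, was 0.03. For the 141 genes with a WT effect of at least 2 it was 0.10. Those 141 genes had a median log2 CPM of 4.32 and a median interaction SE of 0.69, against 7.29 and 0.23 for the 686. A gene can pass the filter through the WT FGF18 libraries alone, and the part of the filter in these medians was not tested. The median of the fallen genes changed sign in some alternatives, and it was 0.01 where genes had to reach 1 CPM in 3 libraries and 0.02 without WT FGF18 replicate 3, while the median of all genes was 0.04 and 0.03. It was -0.001 without FGFR3/4KO vehicle replicate 2 and -0.07 without WT FGF18 replicate 1, which also gave 0.09 for the risen genes. The difference between the medians of risen and fallen genes in FGFR3/4KO RCS was 0.09, and it lay between 0.04 and 0.16 over 18 alternatives. Without WT FGF18 replicate 3 it was 0.04, and without WT FGF18 replicate 1 it was 0.16.

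A response score was computed for each library as the mean log2(CPM + 1) of the 950 risen genes minus that of the 948 fallen genes. It was -1.20, -1.22 and -1.32 in WT vehicle and 0.75, 0.91 and 1.03 in WT FGF18, a separation that the choice of genes fixes. In FGFR3/4KO RCS, whose libraries did not choose the genes, it was -0.82, -0.90 and -0.83 with vehicle and -0.67, -0.77 and -0.71 with FGF18. All 3 FGFR3/4KO FGF18 libraries lay above all 3 FGFR3/4KO vehicle libraries, by a mean of 0.13. The median of reads on genes was 674525 in FGFR3/4KO vehicle and 1115851 in FGFR3/4KO FGF18, and the part of depth in this shift was not tested. FGFR3/4KO vehicle libraries also lay above the WT vehicle libraries, by a mean of 0.40, a gap that is in part fixed by the choice of genes, since WT vehicle libraries were used in it.

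**Figure D2:**
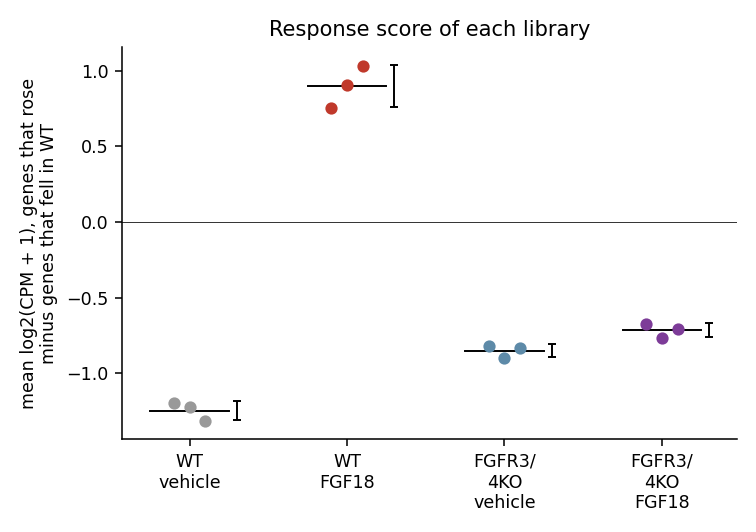
The response score (y axis, log2 units) is shown for each library (points), with the mean of each group (line) and SD (bar, n = 3). WT FGF18 libraries lie between 0.75 and 1.03, and the 6 FGFR3/4KO libraries lie between -0.90 and -0.67 with those given FGF18 highest.

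Genes were also read in lists, whose members were chosen with earlier results of these data known. The share of a list called, here and below, is therefore a description and not independent of the calls. Growth arrest was represented by 13 genes, all tested. The interaction was negative for 3 of them and positive for 0 (23.1% called, against 10.9% of all genes), and their median interaction was -0.37, against -0.01 over all genes. In WT RCS 4 of the 13 rose and 2 fell (12.9% and 12.8% of all genes), with a median effect of -0.02, so that members went both ways. Cdkn2b (ENSRNOG00000006735), which encodes the CDK4 and CDK6 inhibitor p15, was at 31.9, 32.6 and 20.99 CPM in WT vehicle, 293, 343 and 485 in WT FGF18, 35.2, 25.5 and 41.6 in FGFR3/4KO vehicle and 29, 41.7 and 36.8 in FGFR3/4KO FGF18. Only the WT FGF18 libraries were high, and the other 3 groups overlapped. The log2 interaction was -3.71 (SE 0.37, FDR = 7.03e-08), and the effect in FGFR3/4KO RCS was 0.02 with a 95% interval of -0.55 to 0.58.

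Btg1 and Gadd45a showed the same layout at a smaller size. For Btg1 (ENSRNOG00000004284), an antiproliferative factor, the levels were 175, 154 and 179 CPM in WT vehicle and 487, 517 and 552 in WT FGF18, and 198, 153 and 245 and 218, 258 and 245 in the corresponding FGFR3/4KO groups. Gadd45a (ENSRNOG00000005615), a stress-induced gene of growth arrest, stood at 46.4, 48.95 and 33.98 CPM and 137, 137 and 132 CPM in WT RCS and at 39.8, 48.2 and 31.8 CPM and 50.1, 31.9 and 55.3 CPM in FGFR3/4KO RCS. In both genes WT FGF18 lay above every other library and the FGFR3/4KO groups overlapped with each other, and for Btg1 FGFR3/4KO FGF18 also lay above WT vehicle. The interaction was -1.37 (SE 0.21, FDR = 6.02e-05) for Btg1 and -1.42 (SE 0.32, FDR = 0.00372) for Gadd45a.

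Of 23 genes known to respond early to growth factors, 14 were tested, and the interaction was negative for 4 and positive for 1 (35.7% called, against 10.9% of all genes), with a median of -0.87. In WT RCS 7 of the 14 rose and 1 fell, where 12.9% of all genes rose and 12.8% fell. Phlda1 (ENSRNOG00000004019), which encodes a pleckstrin homology-like protein induced by growth factors, was at 141, 118 and 136 CPM in WT vehicle and 1185, 1167 and 1221 CPM in WT FGF18. In FGFR3/4KO RCS it was at 121, 105 and 122 CPM with vehicle and 166, 121 and 189.8 CPM with FGF18, so that the latter group overlapped with FGFR3/4KO vehicle at its lowest library only. The interaction was -2.74 (SE 0.22, FDR = 1.80e-09), and the effect in FGFR3/4KO RCS was 0.43 (95% interval 0.10 to 0.77, FDR = 0.752).

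Etv5 (ENSRNOG00000001785), an ETS factor that FGF receptors commonly switch on through MAPK, had another layout. It was at 11.6, 8.16 and 12.99 CPM in WT vehicle, 59.02, 68.9 and 83.8 in WT FGF18, 59.7, 53.8 and 54.8 in FGFR3/4KO vehicle and 104, 68.2 and 119 in FGFR3/4KO FGF18. The FGFR3/4KO vehicle libraries lay far above WT vehicle and at the lower edge of WT FGF18, which 1 of them overlapped, and all 3 FGFR3/4KO FGF18 libraries were above all 3 vehicle libraries of that genotype. The interaction was -1.86 (SE 0.38, FDR = 0.00126), the effect in FGFR3/4KO RCS was 0.78 (95% interval 0.33 to 1.23, FDR = 0.622), and FGFR3/4KO exceeded WT with vehicle by 2.33 (FDR = 6.80e-06). The comparison with vehicle called 1038 genes, 14.1% of those tested, and it shares its libraries with the interaction, so that the 2 values of a gene are not independent.

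Members called also included Ets2 and Odc1. Odc1, the first enzyme of polyamine synthesis, went the other way, with 62.2 to 76.2 CPM in WT FGF18 and 121 to 135 CPM in WT vehicle, and 157 to 189.8 and 136 to 165 CPM in FGFR3/4KO RCS. Its interaction was 1.03 (SE 0.22, FDR = 0.00242).

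**Figure D3:**
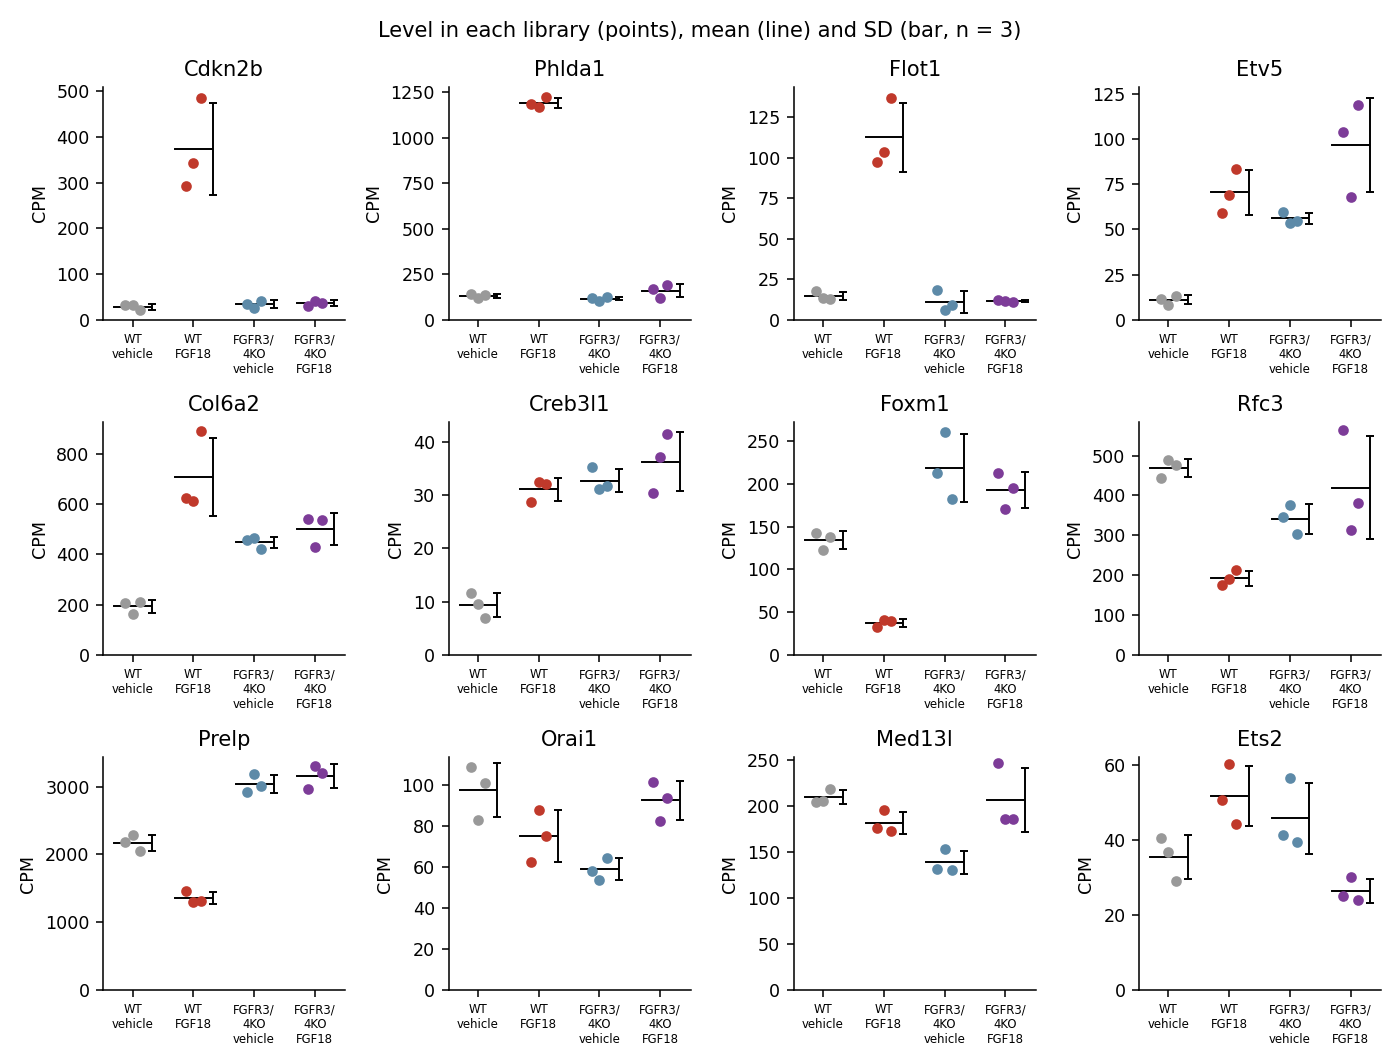
Levels in CPM (y axes, starting at 0) of 12 genes are shown for each library (points) with the mean (line) and SD (bar, n = 3) of the 4 groups. For Cdkn2b, Phlda1 and Flot1 only WT FGF18 is high, for Etv5, Col6a2 and Creb3l1 both FGFR3/4KO groups lie above WT vehicle, and for Foxm1 and Rfc3 WT FGF18 is lowest.

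Further named genes with large negative interactions were Flot1, Cd82, Meltf, Scin, C1qtnf1, Slc8b1, Celf5 and Alb. Flot1 (ENSRNOG00000000826), a scaffold protein of membrane microdomains, was at 17.4, 13.6 and 12.99 CPM in WT vehicle, 97.6, 103 and 137 in WT FGF18, 18.4, 5.67 and 8.77 in FGFR3/4KO vehicle and 11.9, 11.5 and 11.1 in FGFR3/4KO FGF18. WT FGF18 stood alone, FGFR3/4KO FGF18 lay slightly below WT vehicle, and the interaction was -2.94 (SE 0.51, FDR = 2.60e-04). For Cd82 (ENSRNOG00000000047), a tetraspanin, the levels were 114, 122 and 113 CPM and 445, 599.8 and 683 CPM in WT RCS and 274, 280.4 and 192 CPM and 286, 196 and 218 CPM in FGFR3/4KO RCS, vehicle first. FGFR3/4KO libraries of both treatments lay between the WT groups and overlapped with each other, and the interaction was -2.38 (SE 0.25, FDR = 2.06e-07).

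Meltf (ENSRNOG00000001739), the iron-binding membrane protein melanotransferrin, was at 78.3, 54.4 and 68.96 CPM in WT vehicle, 238, 264 and 230.4 in WT FGF18, 47.5, 31.2 and 72.3 in FGFR3/4KO vehicle and 34.3, 54.1 and 58.96 in FGFR3/4KO FGF18. WT FGF18 was above every other library, and the other 3 groups overlapped. The interaction was -1.98 (SE 0.31, FDR = 9.44e-05).

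Scin, a calcium-dependent actin-severing protein of hypertrophic cartilage, was at 0, 2.72 and 2.998 CPM in WT vehicle, 39.3, 35.4 and 13.6 in WT FGF18, 24.5, 22.7 and 13.2 in FGFR3/4KO vehicle and 19.8, 8.86 and 8.29 in FGFR3/4KO FGF18. It rested on 0 to 48 reads a library, the WT FGF18 and FGFR3/4KO groups overlapped and all lay above WT vehicle, and its interaction of -4.51 (SE 0.78, FDR = 2.55e-04) is a fitted value against a group near 0 reads. C1qtnf1, a secreted C1q and TNF family protein, had an interaction of -2.97 (SE 0.69, FDR = 0.00467) on 2 to 26 reads. Slc8b1, a mitochondrial sodium and calcium exchanger, had -2.34 (SE 0.76, FDR = 0.0452), and Celf5, an RNA-binding protein, -1.99 (SE 0.59, FDR = 0.0274). With 1 library left out, Slc8b1 passed in 1 of 12 fits and Celf5 in 4 of 12. DESeq2 called neither (FDR = 0.0646 and 0.0668), and Slc8b1 did not pass with the replicate block (FDR = 0.0624). Neither passed where genes had to reach 1 CPM in 3 libraries, nor did Celf5 with no filter.

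Alb, which encodes serum albumin of hepatocytes, had an interaction of -4.35 (SE 0.85, FDR = 8.87e-04) on 0 to 27 reads. Its levels were 5.80, 9.52 and 1.999 CPM in WT vehicle, 5.74, 25.8 and 28.3 in WT FGF18, 22.98, 19.8 and 23.01 in FGFR3/4KO vehicle and 0, 4.43 and 5.53 in FGFR3/4KO FGF18. WT groups overlapped and the FGFR3/4KO groups did not, with FGF18 lower. Of 8 hepatocyte markers 1, Alb itself, had enough reads for the test, and their summed level was 1.999 to 20.4 CPM in WT vehicle, 9.84 to 46.8 in WT FGF18, 32.2 to 42.7 in FGFR3/4KO vehicle and 0 to 11.1 in FGFR3/4KO FGF18. The source of these reads was not tested.

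Called interactions of the cell division genes were all positive, in lists that were likewise chosen with earlier results of these data known. Of 24 mitosis genes 20 were tested, and the interaction was positive for 14 and negative for 0 (70% called, against 10.9% of all genes), with a median of 1.25. In WT RCS 17 of the 20 fell and 0 rose, where 12.8% of all genes fell. The median effect of the 20 there was -1.26, against -0.04 in FGFR3/4KO RCS. Of 30 genes of DNA replication and repair 22 were tested, and the interaction was positive for 10 and negative for 0 (45.5% called, against the same 10.9%), with a median of 1.08 and a positive estimate for all 22. Here 18 fell in WT RCS, and the median effect was -0.999, against 0.13 in FGFR3/4KO RCS. In bulk RNA, fewer dividing cells and less of these transcripts per cell cannot be told apart.

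Foxm1 (ENSRNOG00000005936), a transcription factor of the G2 and M phases, was at 142, 122 and 138 CPM in WT vehicle, 31.97, 40.2 and 39.4 in WT FGF18, 213, 261 and 182 in FGFR3/4KO vehicle and 212, 170.2 and 195 in FGFR3/4KO FGF18. The WT FGF18 libraries were the lowest, both FGFR3/4KO groups lay above WT vehicle, and they overlapped with each other. The interaction was 1.70 (SE 0.24, FDR = 2.41e-05).

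Spc25 (ENSRNOG00000006731), a subunit of the NDC80 kinetochore complex, was at 277, 247 and 234 CPM and 89.4, 84.2 and 92.4 CPM in WT RCS with vehicle and FGF18, and at 311, 317 and 259.7 CPM and 319, 277 and 234 CPM in FGFR3/4KO RCS. Kifc1, a minus-end kinesin of the spindle, was at 177, 162 and 189.9 CPM and 63.9, 78.4 and 77.6 CPM in WT RCS and at 218, 295 and 207 CPM and 401, 218 and 267 CPM in FGFR3/4KO RCS. For both genes WT FGF18 was below every other library and the FGFR3/4KO groups overlapped. The interaction was 1.42 (SE 0.21, FDR = 3.69e-05) for Spc25 and 1.59 (SE 0.27, FDR = 1.92e-04) for Kifc1. Aurkb, the kinase of the chromosomal passenger complex, had 2.09 (SE 0.62, FDR = 0.027) on 3 to 18 reads, and it passed in 6 of the 12 fits that left out a library and not by DESeq2 (FDR = 0.0608).

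Among replication factors, Rfc3 (ENSRNOG00000001088), a subunit of the clamp loader, was at 445, 488 and 477 CPM in WT vehicle and 175, 190.4 and 212 CPM in WT FGF18. In FGFR3/4KO RCS it was at 345, 377 and 302 CPM with vehicle and 564, 313 and 382 CPM with FGF18, where replicate 1 was the highest library of all. WT FGF18 did not overlap with any other group. The interaction was 1.60 (SE 0.23, FDR = 2.99e-05) for Rfc3, 1.03 (SE 0.19, FDR = 7.07e-04) for Rfc2 of the same complex and 1.36 (SE 0.23, FDR = 2.26e-04) for Mcm4, a subunit of the replicative helicase.

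Other positive interactions were found for the nuclear pore genes Nup85 and Nup107 and for genes outside cell division. No list of nuclear pore genes was tested. Nup85 (ENSRNOG00000003673) was at 91.9 to 131 CPM in WT vehicle and 41.8 to 54.2 CPM in WT FGF18, and at 79.3 to 106 and 112 to 129 CPM in FGFR3/4KO RCS, with an interaction of 1.69 (SE 0.26, FDR = 4.81e-05). Its FGFR3/4KO groups did not overlap, with FGF18 higher. Nup107, of the same pore subcomplex, had 1.86 (SE 0.44, FDR = 0.00505), and its FGFR3/4KO vehicle replicate 2 was at 11.3 CPM against 50.6 and 58.1 CPM in the others. Tdrd5, a tudor domain protein known from the germ line, had the largest positive value among named genes, 2.62 (SE 0.46, FDR = 3.05e-04), with 3.70 to 9.02 CPM in WT FGF18 and at least 26.98 CPM in every other library. Arhgap31, a GTPase-activating protein for Cdc42 and Rac1, Auts2, a nuclear and cytoskeletal regulator, and Usp2, a deubiquitinase, had 2.33, 2.11 and 2.01 (FDR = 0.0406, 0.0391 and 0.0254). They passed in 2, 3 and 8 of the 12 fits without 1 library, and none of them by DESeq2 (FDR = 0.0986, 0.0666 and 0.0538). Arhgap31 and Auts2 did not pass with the replicate block (FDR = 0.0547 and 0.0561), nor did Arhgap31 with no filter.

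Promoters of the genes that moved together were read for 6 short motifs, on both strands, in RefSeq promoters of build GRCr8 that span 250 bases before to 50 bases after the gene start. Of the 1418 named genes tested, 1121 had a promoter in the table. The motif TTTGAA, known as the cell cycle genes homology region, was in 9 of 16 promoters of mitosis genes, in 5 of 21 of DNA replication and repair, in 10.97% of those of named genes and in 18.3% of all 33469 promoters. An E2F motif, TTTGGCGC, TTTCGCGC or GGCGGGAA, was in 2 of 16, in 7 of 21, in 7.23% and in 2.68%. Of the 66 promoters of genes with a positive interaction 15 held the first motif and 11 the second, and of the 37 with a negative interaction 7 and 0.

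The other 4 motifs were the CCAAT box (CCAAT), the E-box CACGTG, an AP-1 motif (TGANTCA) and an ETS motif (CCGGAAGT). Genes with a positive interaction held them in 56.1%, 16.7%, 3.03% and 16.7% of promoters, genes with a negative interaction in 45.9%, 5.41%, 2.70% and 5.41%, and named genes in 38.98%, 11.6%, 4.64% and 11.7%. Over all promoters the shares were 37.5%, 6.42%, 7.33% and 3.81%. The E-box, the core of the site bound by TFEB and TFE3, was in 5 of 20 promoters of lysosome genes. Motifs can overlap, and a match gives only the letters in this window. Of Foxm1, Spc25, Kifc1, Rfc3, Rfc2 and Mcm4, 4 had a promoter in the table, and all 4 held one of the first 2 motifs. They are shown because these genes moved together, 5′ to 3′ on the gene's strand, with the match in capitals, which for Kifc1 is TTTGAA read on the other strand. The matches began at positions -22, -57, -3 and 15 from the gene start for Kifc1, Spc25, Rfc3 and Rfc2.
Kifc1, chr20:5000895-5000924, plus strand: cgacggttgaaaTTCAAAagtggcgggtgt
Spc25, chr3:74396758-74396787, minus strand: ggcgctccggagTTTGAAattgaaagtcgg
Rfc3, chr12:5836553-5836584, plus strand: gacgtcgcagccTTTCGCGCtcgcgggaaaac
Rfc2, chr12:27769991-27770022, minus strand: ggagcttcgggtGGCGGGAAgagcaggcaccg

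The 4 called interactions of lysosome genes were negative, and their share lay near that of all genes. Of 31 genes 27 were tested, the interaction was negative for 4 and positive for 0 (14.8% called, against 10.9% of all genes), and the estimate was below 0 for 24. In WT RCS 12 rose and 0 fell, where 12.9% of all genes rose. The median effect of the list there was 0.48, against 0.07 in FGFR3/4KO RCS. Psap, the precursor of the saposins, was at 822, 906 and 830.5 CPM in WT vehicle, 1349, 1392 and 1602 in WT FGF18, 1249, 1201 and 1172 in FGFR3/4KO vehicle and 1235, 1195 and 1281 in FGFR3/4KO FGF18. FGFR3/4KO libraries lay between the 2 WT groups and overlapped with each other, and the interaction was -0.73 (SE 0.16, FDR = 0.0029). The list had 2 called genes without WT vehicle replicate 1, WT FGF18 replicate 2, FGFR3/4KO vehicle replicate 1 or FGFR3/4KO FGF18 replicate 2.

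Scpep1, a serine carboxypeptidase, was at 211 to 233 CPM and 347 to 370.2 CPM in WT RCS, vehicle first, and at 220.3 to 264 CPM and 218 to 245 CPM in FGFR3/4KO RCS. Only its WT FGF18 group stood apart, and the interaction was -0.73 (SE 0.19, FDR = 0.0096), which did not pass without FGFR3/4KO vehicle replicate 1. Lamp2, a membrane protein of the lysosome, was at 8.70 to 24.98 CPM in WT vehicle and at 38.2 to 51.7, 39.5 to 45.3 and 31.9 to 41.5 CPM in WT FGF18, FGFR3/4KO vehicle and FGFR3/4KO FGF18. Here WT vehicle was the only low group, and the interaction of -1.39 (FDR = 0.0208) passed in 9 of the 12 fits that left out a library.

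In the autophagy list 15 of 16 genes were tested and 1, Sqstm1, was called, which is 6.67% and under the share of all genes. Sqstm1, the receptor p62, was at 75.95 to 97.9 CPM and 162 to 189.7 CPM in WT RCS and at 84.98 to 108 CPM and 84.7 to 109 CPM in FGFR3/4KO RCS, with the last 2 groups overlapping and an interaction of -1.14 (SE 0.24, FDR = 0.00181). Tecpr1, which links autophagosomes to lysosomes, and Stx17, the autophagosomal SNARE, had interactions of -2.08 and 0.59 that did not pass (95% intervals -3.96 to -0.21 and -0.06 to 1.24).

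In the insulin, PI3K and mTORC1 pathway 11 of 14 genes were tested and 2 were called (18.2%, against 10.9% of all genes), 1 in each direction, or 1 in all without FGFR3/4KO vehicle replicate 1. Flcn, a regulator of mTORC1 at the lysosome, was at 11.6, 10.9 and 11.99 CPM in WT vehicle, 40.99, 39.2 and 40.7 in WT FGF18, 16.9, 8.50 and 14.2 in FGFR3/4KO vehicle and 15.8, 10.6 and 13.8 in FGFR3/4KO FGF18. WT FGF18 alone was high, with an interaction of -1.87 (SE 0.47, FDR = 0.00959) that did not pass without FGFR3/4KO vehicle replicate 1. Sh2b2, an adaptor of the insulin receptor, was at 23.8 to 42.1 CPM in WT FGF18 and 60.96 to 91.1 CPM in WT vehicle, and its interaction was 1.45 (SE 0.29, FDR = 0.00133). Pdpk1, the kinase that activates AKT, had 1.21 without passing (95% interval 0.27 to 2.15).

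Among components of the FGF and MAPK pathway, of 24 genes 12 were tested and 1 was called, which is 8.33% and under the share of all genes. The called gene was Mapk14, the kinase p38 alpha, at 92.4 to 99.5 CPM in WT FGF18 against 159 to 168 CPM in WT vehicle and 122 to 147 and 133 to 147 CPM in FGFR3/4KO RCS, with an interaction of 0.77 (SE 0.21, FDR = 0.0151). Rps6ka5, a kinase downstream of p38 and ERK, and Spred1, an inhibitor of RAS signaling, had interactions of 1.61 and -1.29 that did not pass (95% intervals 0.18 to 3.05 and -2.92 to 0.34).

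In the cartilage list 20 of 26 genes were tested, and the interaction was positive for 3 and negative for 2 (25% called, against 10.9% of all genes). Prelp (ENSRNOG00000003120) was at 2178, 2286 and 2044 CPM in WT vehicle, 1456, 1293 and 1309.7 in WT FGF18, 2926, 3184 and 3017 in FGFR3/4KO vehicle and 2969, 3300.4 and 3208 in FGFR3/4KO FGF18. It was lowest in WT FGF18 and highest in both FGFR3/4KO groups, which overlapped, and the interaction was 0.74 (SE 0.16, FDR = 0.00205). Timp2, an inhibitor of matrix metalloproteinases, was at 281 to 348 CPM in WT vehicle and at 543 to 615, 501 to 643 and 409 to 522 CPM in the other groups in the order above, with an interaction of -1.04 (SE 0.19, FDR = 5.56e-04).

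Of 22 genes of other extracellular matrix and adhesion 10 were tested, the interaction was negative for 2 and positive for 0 (20% called, against 10.9% of all genes), and the median was -0.52. Col6a2 (ENSRNOG00000001254), a chain of collagen VI of the matrix around chondrocytes, was at 206, 160.5 and 211 CPM in WT vehicle, 625, 614 and 891 in WT FGF18, 458, 465 and 423 in FGFR3/4KO vehicle and 541, 429 and 539 in FGFR3/4KO FGF18. All FGFR3/4KO libraries lay above WT vehicle and below WT FGF18, and the interaction was -1.71 (SE 0.22, FDR = 4.25e-06). The list had 1 called gene without WT vehicle replicate 3 or FGFR3/4KO vehicle replicate 1. Fstl1, a secreted glycoprotein, had -0.61 (SE 0.18, FDR = 0.0321) and passed in 3 of the 12 fits that left out a library. It did not pass with the replicate block (FDR = 0.0537) or with either other filter. Col5a2, a chain of collagen V, had -2.84 without passing (FDR = 0.0778, 95% interval -4.97 to -0.72).

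Called genes thus differed in the level that FGFR3/4KO RCS held with vehicle. Cdkn2b, Flot1, Phlda1, Btg1, Gadd45a, Flcn and Sqstm1 were not called in the comparison of FGFR3/4KO with WT with vehicle, with log2 differences between -0.33 and 0.37. By contrast FGFR3/4KO exceeded WT with vehicle for Scin (3.14, FDR = 0.00177), C1qtnf1 (2.43, FDR = 0.00486), Etv5 (2.33), Col6a2 (1.21, FDR = 5.63e-06), Cd82 (1.07, FDR = 2.25e-04) and Timp2 (0.80, FDR = 1.96e-04). Over the 366 genes with a negative interaction the median difference with vehicle was 0.47, over the 436 with a positive interaction it was -0.10, and over all genes it was -0.01. WT vehicle and FGFR3/4KO vehicle libraries enter both contrasts with opposite signs, so that the medians are a description only.

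Of 32 genes of ER folding and the secretory pathway 31 were tested and 3 were called, which is 9.68% and under the 10.9% of all genes, with 0 called without WT vehicle replicate 3. Creb3l1, an ER-bound transcription factor of matrix-secreting cells, was at 11.6, 9.52 and 6.995 CPM in WT vehicle, 28.7, 32.5 and 32.03 in WT FGF18, 35.2, 31.2 and 31.8 in FGFR3/4KO vehicle and 30.3, 37.2 and 41.5 in FGFR3/4KO FGF18. Only WT vehicle was low, and the interaction was -1.59 (SE 0.41, FDR = 0.0106). Calu, a calcium-binding protein of the secretory pathway, had 0.67 (SE 0.18, FDR = 0.0179), and Kdelr2, the receptor that returns proteins to the ER, 0.997 (SE 0.30, FDR = 0.0317). Without 1 library Creb3l1 passed in 11, Calu in 10 and Kdelr2 in 5 of 12 fits, and DESeq2 did not call Kdelr2 (FDR = 0.0589).

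In ribosome assembly 4 of 33 genes were called (12.1%), in tRNA ligases and translation initiation 2 of 16 (12.5%), and in proteasome and cytosolic chaperones 3 of 16 (18.8%), against 10.9% of all genes, so that the first 2 lists lay near the background. The called interactions were positive, with median interactions of 0.32, 0.27 and 0.32. Their median WT effects were -0.42, -0.31 and -0.32, and those in FGFR3/4KO RCS were -0.10, -0.02 and 0.04. Eprs, the ligase for glutamate and proline, was at 742 to 845 CPM and 367 to 490.2 CPM in WT RCS and at 972 to 1053 CPM and 940.0 to 1029.9 CPM in FGFR3/4KO RCS, with an interaction of 0.78 (SE 0.17, FDR = 0.00301). Ribosome assembly had 2 called genes without WT vehicle replicate 1, WT vehicle replicate 2 or FGFR3/4KO vehicle replicate 1, and tRNA ligases had 1 without WT vehicle replicate 2, WT FGF18 replicate 2 or FGFR3/4KO vehicle replicate 1. The proteasome list had 1 without WT vehicle replicate 3.

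Ribosome assembly factors called included Pa2g4 (0.75), Tsr1 (0.74) and Pno1 (0.99), the last in 8 of 12 fits without 1 library and not by DESeq2 (FDR = 0.0537). Vars, the valine ligase, had 0.93, and Aimp2, a scaffold of the ligase complex, had 0.50 without passing (FDR = 0.187). The chaperone Hsph1 had 0.89, and the proteasome lid subunits Psmd11 and Psmd12 had 0.68 and 0.54, the latter with an FDR of 0.0487 that was lost in 9 of the 12 fits without 1 library, by DESeq2 (FDR = 0.0542), with the replicate block (FDR = 0.0812), with upper-quartile normalization and with no filter. Vars passed in 9 and Psmd11 in 11 of these fits. In mitochondrial respiration 1 of 17 genes was called (5.88%), Cox7a2l, a factor for respiratory supercomplexes, with -0.58 (SE 0.19, FDR = 0.0412) in 3 of 12 fits without 1 library and with neither other filter, and Dlst and Atp5j did not pass (FDR = 0.0732 and 0.128). The number called in that list was 3 without WT FGF18 replicate 3 or FGFR3/4KO FGF18 replicate 1, and 0 in 9 of the 12 fits.

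**Figure D4:**
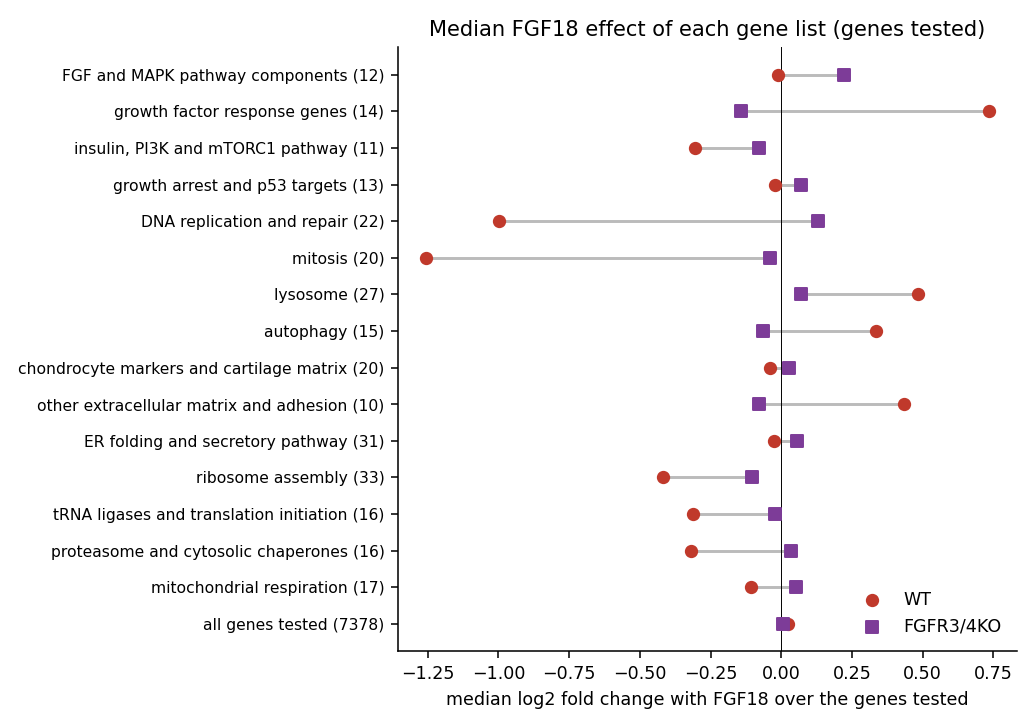
The median log2 fold change with FGF18 (x axis) is shown for the genes tested in each of 15 lists and in all 7378 genes, for WT RCS (circles) and FGFR3/4KO RCS (squares), with the number of genes in brackets. The mitosis and DNA replication lists lie at -1.26 and -0.999 for WT RCS, while for FGFR3/4KO RCS they lie at -0.04 and 0.13.

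Among the 802 called genes, 24 with a positive and 15 with a negative interaction had no call in WT RCS. At an FDR of 0.05 some of the 802 calls are expected to be false. Orai1, Med13l and Ets2 were chosen from these genes by their interaction FDR, so that a separation of their FGFR3/4KO groups is in part fixed by the choice. Orai1, the pore of the store-operated calcium channel, was at 109, 82.9 and 101 CPM in WT vehicle, 62.3, 88 and 75.2 in WT FGF18, 58.2, 53.8 and 64.7 in FGFR3/4KO vehicle and 102, 82.4 and 93.96 in FGFR3/4KO FGF18. The WT groups overlapped, and the FGFR3/4KO groups did not, with FGF18 higher. Its effects were -0.38 and 0.62, neither past the threshold (FDR = 0.113 and 0.646), while their difference was 1.001 (SE 0.26, FDR = 0.0113).

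Med13l, a subunit of the kinase module of Mediator, was at 204, 205 and 218 CPM and 176, 195 and 172 CPM in WT RCS and at 132, 153 and 130.4 CPM and 247, 186 and 186 CPM in FGFR3/4KO RCS. It had the same layout as Orai1, except that the WT groups did not overlap, with an interaction of 0.79 (SE 0.21, FDR = 0.0139). Its effects in WT and FGFR3/4KO RCS were -0.21 and 0.58, neither past the threshold (FDR = 0.320 and 0.622). Ets2, an ETS factor downstream of MAPK, was at 40.6, 36.7 and 28.98 CPM and 50.8, 60.3 and 44.4 CPM in WT RCS and at 41.4, 56.7 and 39.5 CPM and 25.05, 30.1 and 23.95 CPM in FGFR3/4KO RCS. FGF18 libraries were the higher in WT RCS and the lower in FGFR3/4KO RCS without overlap in either. The effects were 0.57 and -0.73, neither past the threshold (FDR = 0.0716 and 0.752), with an interaction of -1.30 (SE 0.35, FDR = 0.0139). That of Ets2 did not pass without WT vehicle replicate 3.

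At the other end, 5 named genes had a WT call, an effect of the same sign in FGFR3/4KO RCS at an unadjusted p under 0.05, and the smallest interactions. Cisd1, an iron-sulfur protein of the outer mitochondrial membrane, was at 639, 579 and 587 CPM in WT vehicle, 493, 474 and 341 in WT FGF18, 633, 745 and 608 in FGFR3/4KO vehicle and 436, 551 and 489 in FGFR3/4KO FGF18. FGF18 libraries were the lower in both genotypes, without overlap. The effects were -0.46 and -0.42, and the interaction was 0.04 (95% interval -0.36 to 0.45).

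Yy1, a zinc finger transcription factor, Csnk2a1, the catalytic subunit of casein kinase 2, and Desi1, a desumoylating peptidase, had FGF18 effects below 0 in both genotypes, with log2 values of -0.74, -0.59 and -0.44 in FGFR3/4KO RCS. Nagpa, the uncovering enzyme of the mannose 6-phosphate tag, had an effect above 0, with 0.58. In FGFR3/4KO RCS none of the 5 passed the threshold, with FDRs from 0.703 to 0.755. The 95% interval of the interaction ran from -0.82 to 0.74 for Yy1 and from -0.36 to 0.45 for Cisd1. A difference between the genotypes inside these bounds is not excluded. Nor is a larger one, since the genes were chosen for a small interaction. The Yy1 libraries of WT FGF18 were spread from 24.6 to 92.8 CPM and overlapped with WT vehicle, and without replicate 2 of that group its interaction was 0.52.

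In the lists for fibroblasts or osteoblasts, endothelium, nerve or glia, immune cells and epithelium, 1 of 6, 0 of 4, 2 of 8, 1 of 6 and 1 of 5 genes had enough reads for the test, and 0 of them had an interaction past the threshold. The summed level of the fibroblast or osteoblast list was 15.9 to 23.1 CPM in WT vehicle, 30.6 to 46.8 in WT FGF18, 25.5 to 32.2 in FGFR3/4KO vehicle and 21.1 to 33.7 in FGFR3/4KO FGF18. That of the endothelial list was 0 to 1.45, 6.16 to 9.02, 2.83 to 7.67 and 0 to 7.91 CPM in the same order. Both sums were higher in WT FGF18 than in WT vehicle without overlap, while the FGFR3/4KO groups overlapped. Thy1, the most abundant fibroblast or osteoblast marker over all libraries, did not follow its sum. It was at 14.96 to 18.99 CPM in WT vehicle and 8.62 to 13.9 in WT FGF18. Apln, the most abundant endothelial marker, was at 0 CPM in WT vehicle and 0 to 1.23 CPM in WT FGF18. Its reads were too few to show whether it followed its sum. Epithelial markers summed to 17.7 to 24.6, 25.4 to 30.8, 12.3 to 19.8 and 9.23 to 11.1 CPM, with no overlap between treatments in either genotype and FGF18 higher in WT RCS and lower in FGFR3/4KO RCS. Tmprss2, the most abundant of them, overlapped between treatments in both genotypes. Immune cell markers, led by Def6, summed to 28.3 to 62.8 CPM over all libraries, and their groups overlapped. The nerve or glia list reached 84.3 to 105 CPM in WT vehicle, 134 to 229.6 CPM in WT FGF18 and 180 to 221 CPM in FGFR3/4KO RCS. Its most abundant member, Mapt, which encodes the microtubule protein tau, was at 56.5 to 77.9 CPM in WT vehicle, 101.6 to 139.7 in WT FGF18 and 140.3 to 180.8 in FGFR3/4KO RCS and had an interaction of -0.73 (SE 0.24, FDR = 0.0502). Each of these markers had a read in at least 1 library, and the part of other cells in the interaction was not tested.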

How the data were processed

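Count tables were used for 12 libraries of RCS cells. According to the submitters' notes and the study's methods, the authors trimmed reads with Trim Galore, used STAR with the rat build rn6 and assigned reads to genes by htseq-count. What the authors deposited are raw counts per gene, and versions are not given in the sources used here. The methods name a human annotation release, while the identifiers are those of rat Ensembl genes. Lines of uncounted reads were removed, which left 12.5% to 18.8% of all reads. Names came from 1998 identifier and symbol pairs of the study, all found among the 32754 genes. Groups were taken from the labels.

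Genes were filtered by filterByExpr (minimum count 10, minimum total 15), which left 7378, and tested on all 12 libraries together with edgeR 4.0.16 (TMM normalization, quasi-likelihood F test, R 4.3.3). Benjamini-Hochberg adjustment ran over all genes tested, with a threshold of 0.05. SE is the absolute log2 effect over the root of F, and intervals are 95%. Intervals and read floors cover counting error and the spread between these libraries only. Alternatives were DESeq2 1.42.0, RLE and upper-quartile normalization, no filter, at least 1 CPM in 3 libraries, replicate number as a block, and each library left out. The edgeR fit of the interaction was tested on simulated data.

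Named genes were, among those with a symbol, the 10 largest interactions in each direction, the 3 lowest FDRs in each of 15 lists, 5 genes with a like effect in both genotypes, 3 called without a WT call and the most abundant marker of each of 7 cell types. Where the rule took a gene that is not reported here, the following one was used. Members and lists were chosen with earlier results of these data known.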

Additional observations from a re-analysis of the deposited data

Results flagged for a closer look

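The FGF18 effect differed between the genotypes by the test of the interaction for 802 genes, and the log2 interaction of each such gene described by name is given in brackets. Growth factor response and growth arrest genes that passed were Cdkn2b (-3.71), Phlda1 (-2.74), Etv5 (-1.86), Ets2 (-1.30), Btg1 (-1.37), Gadd45a (-1.42) and Odc1 (1.03). Among components of the FGF and MAPK pathway, Mapk14 (0.77) passed. Genes of mitosis, replication and the nuclear pore were Foxm1 (1.70), Aurkb (2.09), Kifc1 (1.59), Spc25 (1.42), Rfc3 (1.60), Rfc2 (1.03), Mcm4 (1.36), Nup85 (1.69) and Nup107 (1.86). For the lysosome, autophagy and insulin lists the genes were Psap (-0.73), Scpep1 (-0.73), Lamp2 (-1.39), Sqstm1 (-1.14), Flcn (-1.87) and Sh2b2 (1.45). Matrix and secretory pathway genes were Scin (-4.51), Timp2 (-1.04), Prelp (0.74), Col6a2 (-1.71), Fstl1 (-0.61), Creb3l1 (-1.59), Calu (0.67) and Kdelr2 (0.997). Protein synthesis, proteasome, chaperone and respiration genes were Pa2g4 (0.75), Tsr1 (0.74), Pno1 (0.99), Eprs (0.78), Vars (0.93), Hsph1 (0.89), Psmd11 (0.68), Psmd12 (0.54) and Cox7a2l (-0.58). Outside the lists, negative values were those of Alb (-4.35), C1qtnf1 (-2.97), Flot1 (-2.94), Cd82 (-2.38), Slc8b1 (-2.34), Celf5 (-1.99) and Meltf (-1.98). Positive ones were those of Tdrd5 (2.62), Arhgap31 (2.33), Auts2 (2.11), Usp2 (2.01), Nup107 (1.86), Nup85 (1.69), Orai1 (1.001) and Med13l (0.79).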

How the results depend on the processing

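The count of interaction genes stayed within 1.5 times of 802 under every alternative run, between 561 without FGFR3/4KO vehicle replicate 1 and 880 without WT FGF18 replicate 3. DESeq2 called 616, of which 613 were among the 802. Of the 53 called genes described by name, 34 passed under all 18 alternatives and 19 were lost in some, and none of the 53 changed sign.

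Of the others, the interaction of Yy1 (-0.04) changed sign with no filter (0.00161), with a minimum of 1 CPM in 3 libraries (0.0224) and with a library left out, where it ranged from -0.315 to 0.524. Cisd1 ranged from -0.0686 to 0.164, Csnk2a1 from -0.0811 to 0.268 and Nagpa from -0.396 to 0.119. The cause was not tested.

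In FGFR3/4KO RCS no filter gave 9 genes higher and 11 lower, a minimum of 1 CPM in 3 libraries gave 1 lower, and libraries left out gave 0 to 1 lower. The median effect there of genes that rose in WT RCS was 0.0914 with that minimum and 0.054 to 0.0905 with a library left out, and that of fallen genes was 0.00879 and -0.0682 to 0.0164.

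With a library left out, genes lower in FGFR3/4KO than WT with vehicle numbered 258 to 530 (448 with all). Called genes ranged over 2 to 4 for lysosome, 2 to 4 for ribosome assembly, 1 to 2 for tRNA ligases, 0 to 3 for mitochondrial respiration, 1 to 3 for other matrix, 0 to 4 for ER folding, 1 to 4 for proteasome and 1 to 3 for insulin. DESeq2 called 2 of ribosome assembly.

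Same-numbered replicates did not deviate together (mean r = -0.03 across genes, from -0.21 to 0.05 over 18 pairs), so the numbers were not taken as pairing. With the replicate block 674 interaction genes were called, 668 of them among the 802, and 1 gene of other matrix.

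The library with the fewest reads had 373964 on genes, and a gene under the filter was not tested. The median SE of an interaction was 0.37, so that small differences between the genotypes were not detectable, and the parts of depth and of spread between replicates in it were not separated. FGFR3/4KO is 1 clone, and genotype, clone and the share of low-quality reads cannot be told apart.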
